A study of Mus musculus with 27 samples.

Results

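The effect of adding Gata4 to cells that already received Mef2c was followed by ATAC-seq. The assay uses a transposase that cuts accessible DNA and tags the ends for sequencing. The comparison uses 6 of the 24 libraries with counts (27 samples are labelled), 3 of cells given Gata4 and Mef2c together (GM) and 3 of cells given Mef2c alone (M). The cells were an immortalised line of neonatal cardiac fibroblasts from Cd-1 mice that expresses large T antigen and carries the alpha-MHC-GFP reporter, and all factors were delivered by retrovirus. GM and M cells both grew in sb431542, an inhibitor of TGF-beta signalling, and xav939, an inhibitor of Wnt signalling, and were taken at day 2 without sorting. Other groups, also of 3 libraries each, are set beside them. They are GMT (Gata4, Mef2c and Tbx5), MT (Mef2c and Tbx5), GT (Gata4 and Tbx5), T (Tbx5) and G (Gata4), all with the inhibitors, and a control given dsRed without the inhibitors. Cells that took up no virus, or only one of the viruses, stayed in these populations, so a change in the share of cells with an open region and a change within each cell cannot be told apart. The levels of the introduced factors were not measured in these libraries.

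Gata4 is a zinc-finger transcription factor of the early heart that binds GATA motifs and can engage closed chromatin. Mef2c is a MADS-box factor that binds A/T-rich sites in the enhancers of muscle genes and takes part in heart and skeletal muscle differentiation. Together with the T-box factor Tbx5 they convert fibroblasts towards a cardiomyocyte-like state, and both factors are known to act with shared partners at cardiac enhancers. Accessible regions away from promoters are often enhancers, and a gain or loss of transposase insertions there is read as opening or closing of the chromatin.

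The table holds 30815 regions in mm9 coordinates, and 20494 of them (66.5%) had enough counts to be tested. Regions are named by their mm9 position and were not assigned to genes here. Total counts were 1558476, 407184 and 647066 in GM replicates 1 to 3, and 625166, 1031724 and 456282 in M replicates 1 to 3. The M libraries resembled one another more than the GM libraries did. Mean Spearman correlations across regions with the other libraries of the same group were 0.8371, 0.8045 and 0.8612 for GM replicates 1 to 3, and 0.9071, 0.9048 and 0.8832 for M replicates 1 to 3. GM replicate 2, the shallowest GM library, stood closer to the control (0.8151) than to the other GM libraries (0.8045), so results are also given without it. The library labelled GT replicate 1 stood closer to G (0.8927) than to the other GT libraries (0.726), and it is treated in the same way. Replicates are described only as biological, so the p-values rest on the spread between samples whose origin is not known further.

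Regions both gained and lost accessibility when Gata4 was added to Mef2c. By edgeR's quasi-likelihood test at an adjusted p below 0.05, 926 regions (4.52% of those tested) differed, 542 higher in GM than in M (2.64%) and 384 lower (1.87%). The median log2 fold change, GM over M, was 2.09 among the regions that rose, -2.07 among those that fell and 0.02 over all regions tested. Of the regions that rose, 304 changed by a log2 fold change of at least 2, and 206 of those that fell changed as much. In regions that rose, the median level was 40.4, 29.8 and 53.7 CPM (counts scaled to the TMM-adjusted library size) in the GM libraries, against 8.36, 8.79 and 11.1 CPM in the M libraries. In regions that fell, it was 11.8, 12.4 and 9.48 CPM in the GM libraries, against 53.5, 49.7 and 44.4 CPM in the M libraries. The libraries of the groups did not overlap in 514 of the 542 regions that rose and in 376 of the 384 that fell. Over all regions tested, GM lay wholly above M in 13.3% and wholly below it in 12.2%.

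**Figure D1:**
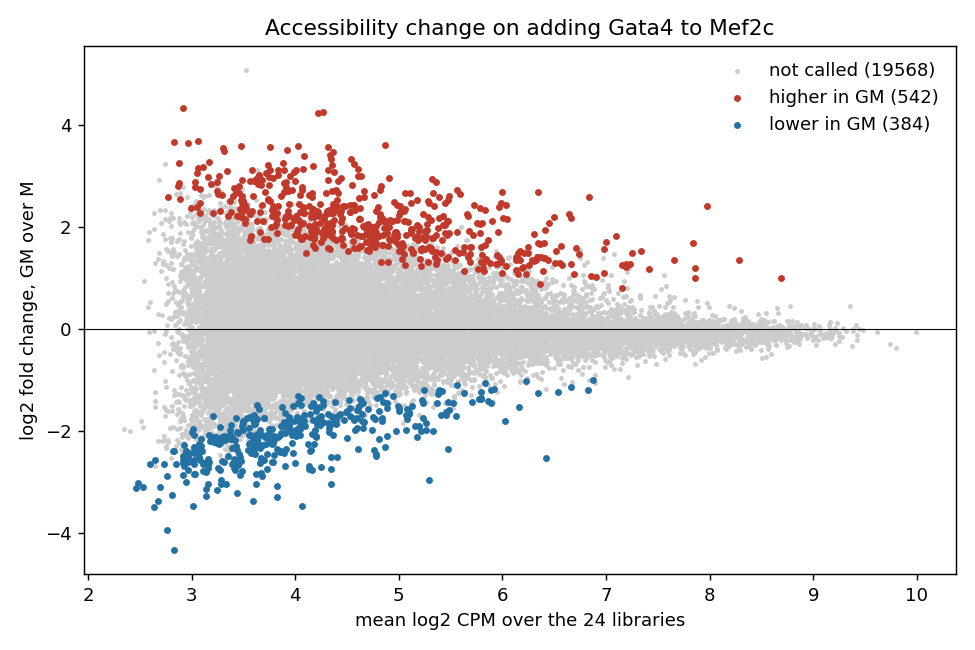
Each point is one of the regions tested, with its mean log2 CPM over the 24 libraries on the horizontal axis and its log2 fold change, GM over M, on the vertical axis. The 542 regions higher in GM are red, the 384 lower in GM are blue, and the other regions are grey.

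The number of calls depended on single libraries. There were 253 without M replicate 1, 177 without M replicate 2, 487 without GM replicate 1 and 188 without GM replicate 3, against 926 with all libraries and 1062 without GM replicate 2. The library labelled GT replicate 1 is in neither group but is part of the model of all 24 libraries. Without it the calls numbered 1345 (796 higher and 549 lower). The split between the directions also depended on the scaling. With TMM 58.5% of the calls were rises, and with loess offsets 44.6% were, with 450 regions higher and 558 lower.

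The 12 top-ranked rises, chosen by log2 fold change among well-covered regions whose groups did not overlap, ran from a log2 fold change of 3.62 to 2.82. The first was chr5:107876951-107877176, with 67.1, 57.1 and 109 CPM in the GM libraries, against 8.36, 3.1 and 8.87 CPM in the M libraries (log2 fold change 3.62 ± 0.55 SE, adjusted p = 0.00034). All GM libraries stood far above all M libraries, which held only 3 to 5 counts each in this region. The region was also open in G, at 190 CPM on average, and stood at 23.5 CPM in the control. At chr7:141020197-141020605 the GM libraries had 67.1, 52.1 and 111 CPM and the M libraries 5.01, 3.1 and 17.7 CPM (log2 fold change 3.33 ± 0.54, adjusted p = 0.000421). At chr1:75452098-75452357 the GM libraries had 46.7, 27.3 and 104 CPM and the M libraries 10, 3.1 and 6.65 CPM (log2 fold change 3.25 ± 0.65, adjusted p = 0.00364). GM replicate 2 was the lowest of the GM libraries at all 3 of these regions. That no GM library overlapped M was a condition for naming them.

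A pair of neighbouring regions on chromosome 2 ranked 4 and 7. The wider of them, chr2:61107871-61108249, had 57.9, 22.3 and 85.3 CPM in the GM libraries, against 8.36, 3.1 and 8.87 CPM in the M libraries (log2 fold change 3.15 ± 0.56, adjusted p = 0.00112). Its neighbour, chr2:61107393-61107667, had 40.1, 22.3 and 37.9 CPM in the GM libraries, against 6.69, 0 and 8.87 CPM in the M libraries (log2 fold change 2.96 ± 0.64, adjusted p = 0.00631). Both opened together, and both were also high in G, at 73 and 61.6 CPM, while the control had 8.69 and 17.7 CPM. At rank 5, chr1:157643063-157643549, had 44.1, 32.3 and 53.7 CPM in GM and 3.34, 7.24 and 4.44 CPM in M, with the smallest spread among the GM libraries of the first 5 (SD 10.7 CPM). The highest GM level among the 12 was at chr3:128997626-128998215, with 178, 52.1 and 144 CPM in the GM libraries, against 16.7, 19.7 and 11.1 CPM in the M libraries (log2 fold change 2.95 ± 0.51, adjusted p = 0.000802). Here G averaged 55.7 CPM. Neither GM against G (log2 fold change 1.12, adjusted p = 0.121) nor G against control (log2 fold change 1.19, adjusted p = 0.091) passed the test. Over the 12 rises, mean levels ran from 33.5 to 125 CPM in GM and from 5.01 to 15.8 CPM in M.

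The 12 top-ranked falls ran from a log2 fold change of -2.94 to -2.11. The first was chr2:6911839-6912415, with 16.4, 12.4 and 17.4 CPM in the GM libraries, against 125, 120 and 122 CPM in the M libraries (log2 fold change -2.94 ± 0.36, adjusted p = 2.44e-05). The groups were far apart and each was tight. The same region stood at 163 CPM in MT and 64.9 CPM in T, and at 7.7 CPM in G and 33.1 CPM in the control. At chr2:173433681-173434114 the GM libraries had 36.8, 22.3 and 15.8 CPM and the M libraries 170, 186 and 99.8 CPM (log2 fold change -2.52 ± 0.40, adjusted p = 0.000421). This region was already open in the control, at 68.8 CPM, and MT against T did not pass the test there (adjusted p = 0.551). Its highest mean was in T, at 272 CPM, against 59.6 CPM in GT (log2 fold change -2.18, adjusted p = 0.000519). GMT, at 159 CPM, stayed near MT, at 204 CPM, and did not pass (log2 fold change -0.35, adjusted p = 0.695).

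A different pattern held at chr11:32846515-32846968, which was nearly closed without Mef2c. Its levels were 44.1, 22.3 and 45.8 CPM in the GM libraries, against 182, 202 and 204 CPM in the M libraries (log2 fold change -2.34 ± 0.36, adjusted p = 0.000382). It stood at 21.4 CPM in GMT and 62.3 CPM in MT, and between 6.5 and 9.8 CPM in GT, T, G and control. The 4 groups with Mef2c were thus the highest, and GM and GMT were lower than their partners without Gata4 (GMT against MT, log2 fold change -1.50, adjusted p = 0.0494). At chr6:117502478-117502837 the GM libraries had 21.7, 27.3 and 20.5 CPM and the M libraries 98.6, 104 and 99.8 CPM (log2 fold change -2.14 ± 0.41, adjusted p = 0.00215). Over the 12 falls, mean levels ran from 8.94 to 37.4 CPM in GM and from 50.9 to 196 CPM in M. Of the 24 rises and falls named by rank, 7 lost their call when 1 library was left out, with adjusted p between 0.051 and 0.123. They were ranks 3 and 7 (without M replicate 2), 10 (without M replicate 1 or GM replicate 3) and 12 (without M replicate 1, M replicate 2 or GM replicate 3) of the rises. Among the falls they were ranks 6 and 12 (without GM replicate 3) and 11 (without M replicate 2 or GM replicate 3).

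**Figure D2:**
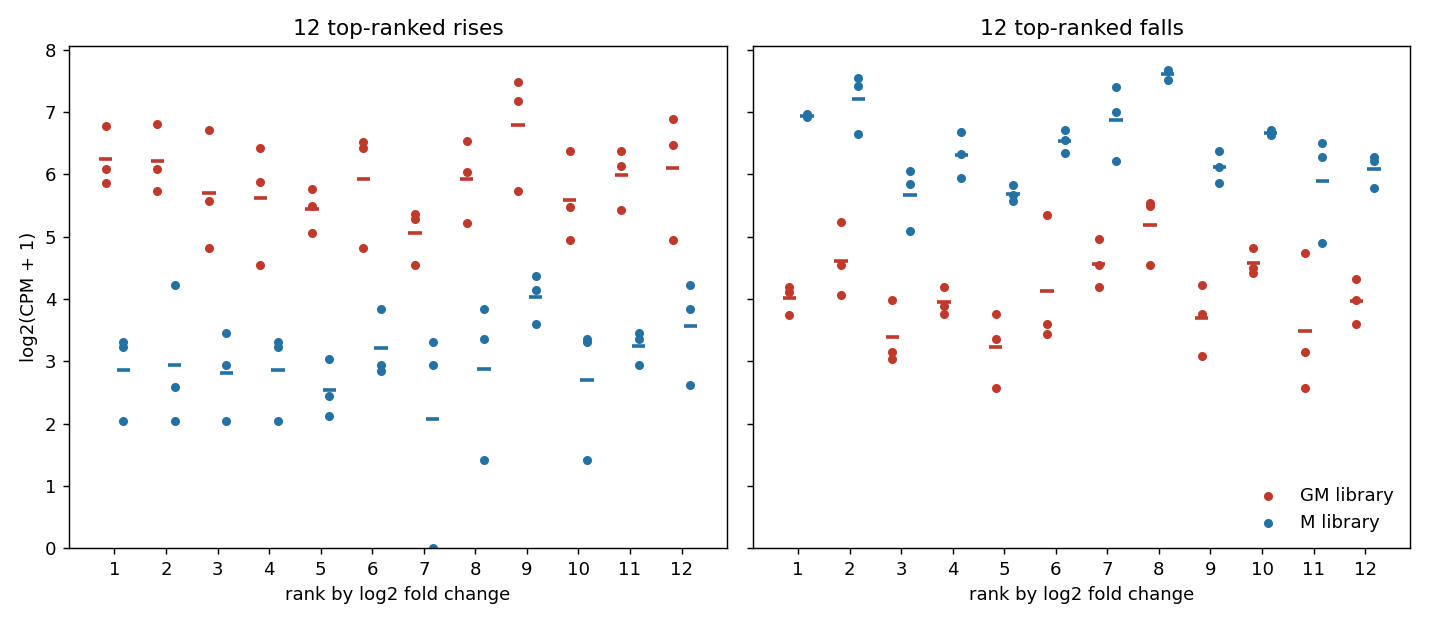
Levels of the 12 top-ranked rises (left) and falls (right) as log2(CPM + 1), with the 3 GM libraries in red, the 3 M libraries in blue and bars at the group means. The GM libraries lie above all M libraries at every rise and below them at every fall, which the rule for these regions required.

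The levels of the called regions in the other 6 groups set the rises and falls apart. These groups were outside the GM against M contrast, but their libraries entered the filter, the scaling and the dispersion behind the calls. Regions that rose had median group levels of 55.5 CPM in G, 45.8 CPM in GT and 33.4 CPM in GMT, and of 14.8 CPM in MT, 12.3 CPM in T and 16.2 CPM in the control. All medians with Gata4 were therefore above all medians without it. Those of GM, at 42.4 CPM, and M, at 9.64 CPM, follow from the calls that chose the regions. Regions that fell had their highest medians in groups with Mef2c, and among those groups the medians were lower where Gata4 was present. Their medians were 11.3 CPM in GM and 47.9 CPM in M, an order fixed by the calls, and 12.5 CPM in GMT and 23.1 CPM in MT. In the groups without Mef2c they were 6.65 CPM in GT, 7.97 CPM in T, 5.91 CPM in G and 9.86 CPM in the control. Over all regions tested, group medians lay between 18.9 CPM in the control and 25.6 CPM in GMT.

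**Figure D3:**
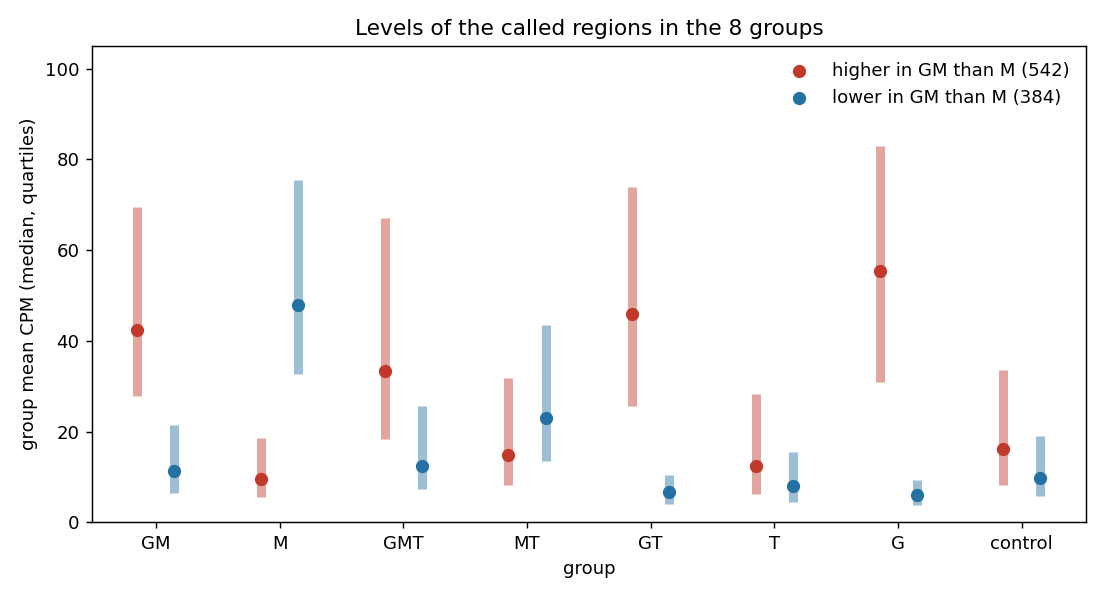
Points are medians, and bars the quartiles, of the group mean CPM over the 542 regions higher in GM than M (red) and the 384 lower in GM than M (blue), in each of the 8 groups. The red medians stand at 33.4 CPM or more in the groups with Gata4 and at 16.2 CPM or less in those without. The blue median is highest in M, at 47.9 CPM. The order of GM and M in each colour follows from the calls that chose the regions.

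Gata4 was also added to Tbx5 (GT against T) and to Mef2c with Tbx5 (GMT against MT), and was given without another factor (G against control). None of these comparisons contrasts a library of GM or M, although 1 model was fitted to all 24 libraries. In G against control the inhibitors were added together with Gata4, and their effects cannot be told apart. Regions that rose in GM were higher in GT than T in 527 of 542 cases (97.2%), with a median log2 fold change of 1.61, against 51.9% and 0.04 over all regions tested. In GMT against MT they were higher in 512 cases (94.5%), with a median of 1.04, against 49.1% and -0.01 over all regions. In G against control they were higher in 510 cases (94.1%), with a median of 1.49, against 50.1% and 0.00. Leaving out each library of the groups involved gave 94.1% to 99.1% for GT against T, 90.6% to 97.3% for GMT against MT and 91.2% to 98.2% for G against control.

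Many of these regions also passed the test in the other libraries. Of the 542 regions that rose, 303 (55.9%) were called higher in GT than T, where 7.41% of all regions were (12.7% in either direction). In G against control 328 (60.5%) were called higher, where 9.61% of all regions were (15.7% in either direction). In GMT against MT 65 (12%) were called higher, where 0.839% of all regions were (0.986% in either direction). By these calls, 41 of the 542 regions rose in all 3 other comparisons, 204 in 2 of them, 165 in 1 and 132 (24.4%) in none. The 132 without another call had a median log2 fold change of 1.86 in GM against M and median levels of 42 CPM in GM and 11.6 CPM in M, and of 33.4 CPM in G and 22.9 CPM in the control. These counts rest on the length of each list. The 1518 regions called higher in GT than T became 541 without T replicate 1, 434 without T replicate 2 and 552 without the library labelled GT replicate 1. The 172 called higher in GMT than MT became 544, 11 and 2 when GMT replicates 1, 2 and 3 were left out in turn, and 1, 0 and 77 when MT replicates 1, 2 and 3 were. Without the library labelled GT replicate 1 they became 355. The 1970 called higher in G than control became 1012 without G replicate 1, 964 without G replicate 3, 1143 without control replicate 2 and 845 without control replicate 3.

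**Figure D4:**
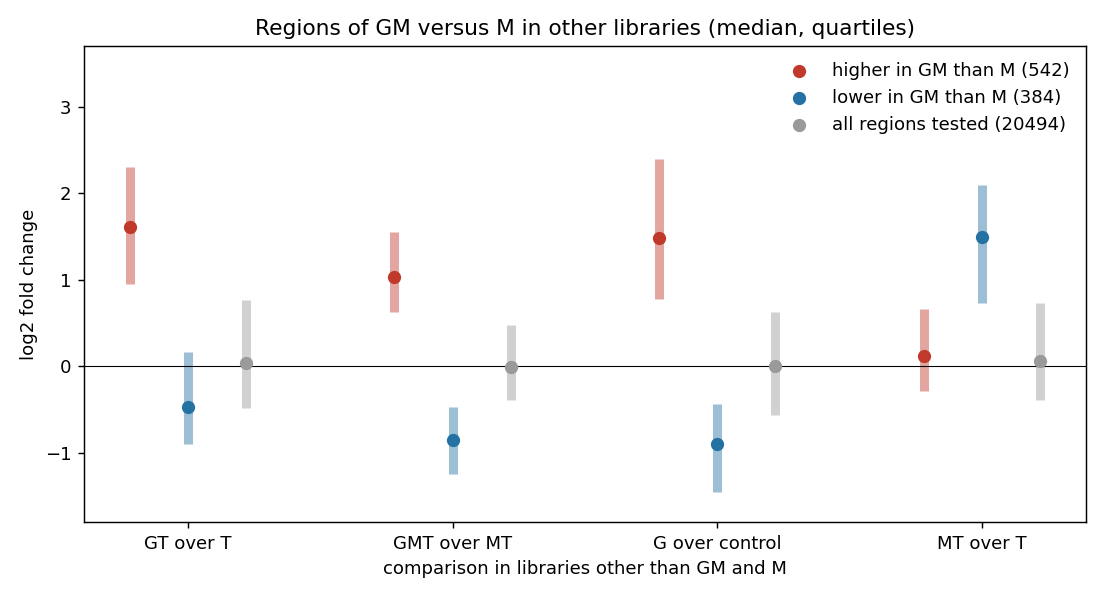
Log2 fold changes in 4 comparisons of libraries other than GM and M, as medians (points) and quartiles (bars), for the 542 regions higher in GM than M (red), the 384 lower in GM than M (blue) and all 20494 regions tested (grey). The red medians are 1.61, 1.04 and 1.49 in the 3 comparisons that add Gata4, and the blue median is 1.49 in MT over T.

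The regions that fell in GM were mostly regions that stood higher in other cells given Mef2c. In MT against T, where Mef2c was added to Tbx5, 361 of the 384 (94%) were higher in MT, with a median log2 fold change of 1.49, against 53.3% and 0.07 over all regions tested. Of them 121 (31.5%) were called higher in MT, where 5.29% of all regions were, and none were called lower, where 1.16% were (6.46% in either direction). The 121 regions had median levels of 18.3 CPM in GM and 69.2 CPM in M, 23 CPM in GMT and 41.9 CPM in MT. In GT, T, G and control the medians were 9.59 CPM or less. Levels of M above GM, and of MT above T, follow from the calls that chose these regions. In GMT against MT 364 of the 384 (94.8%) were lower in GMT, against 50.9% of all regions tested, with a median log2 fold change of -0.85. Of them 5 passed the test, where 0.146% of all regions did. In G against control 334 (87%) were lower in G, against 49.9% of all regions, with a median of -0.90. Of them 78 (20.3%) were called lower, where 6.07% of all regions were. In GT against T 260 (67.7%) were lower in GT, against 48.1% of all regions, with a median of -0.47. Of them 28 (7.29%) were called lower, where 5.27% of all regions were. The median in GT against T was -0.20 without T replicate 3 and -0.23 without GT replicate 2.

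The same relation was read from lists whose contrasts left out the GM and M libraries, which still entered the shared model. The 1085 regions called higher in MT than T had, per library, a median of 31.6, 27.3 and 30 CPM in GM and of 45.1, 43.4 and 44.4 CPM in M. All GM libraries were below all M libraries, and both groups were above G, whose libraries had 8.16, 13 and 6.36 CPM, and the control, whose libraries had 13.4, 10.4 and 8.51 CPM. Of these regions 808 (74.5%) were lower in GM than M, with a median log2 fold change of -0.47, against 0.02 over all regions tested. Called lower were 121 (11.2%), where 1.87% of all regions were. They are the 121 already counted among the 384 falls, seen from the other list. Another 13 (1.2%) of the 1085 were called higher, where 2.64% of all regions were. The 74.5% ranged from 69.7% to 76.8% when each library of GM, M, MT and T was left out. The 121 calls were 44 without M replicate 1, 36 without M replicate 2, 58 without GM replicate 1 and 31 without GM replicate 3, and 48, 37, 59 and 62 with lists made without T replicate 1, T replicate 2, MT replicate 1 and MT replicate 2. The list itself held 401, 294, 618 and 461 regions in those last 4 cases.

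At the 1518 regions called higher in GT than T, the library medians were 30.3, 22.3 and 36.3 CPM in GM, against 11.7, 11.4 and 13.3 CPM in M. The groups did not overlap, and GM replicate 2 was the lowest GM library. G libraries reached 54.4, 31.2 and 55.5 CPM at these regions and control libraries 17.8, 16.9 and 16.1 CPM, so that M lay below the control. Of the 1518, 1439 (94.8%) were higher in GM than M, with a median log2 fold change of 1.12, against 0.02 over all regions tested. Of them 303 (20%) were called higher, where 2.64% of all regions were. They are the 303 already counted among the 542 rises. The 303 calls were 85 without M replicate 1, 51 without M replicate 2, 174 without GM replicate 1 and 72 without GM replicate 3. The share of regions higher in GM stayed between 93% and 95.1% in these fits and without M replicate 3 or GM replicate 2. With lists made without T replicate 1, T replicate 2 and the library labelled GT replicate 1, the number called was 173, 140 and 196. Of the 1970 regions called higher in G than control, 1867 (94.8%) were higher in GM than M, with a median of 1.18, again against 0.02. Among the 1970, 328 (16.6%) were called higher in GM than M, the same 328 already counted among the rises. Of the 1243 regions called lower in G than control, 78 (6.28%) were called lower in GM than M, where 1.87% of all regions were. Only 1 was called higher. The 1243 regions were lower in GM than M in 971 cases (78.1%), with a median log2 fold change of -0.46. That median was -0.24 without GM replicate 1 and -0.74 without GM replicate 2.

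**Figure D5:**
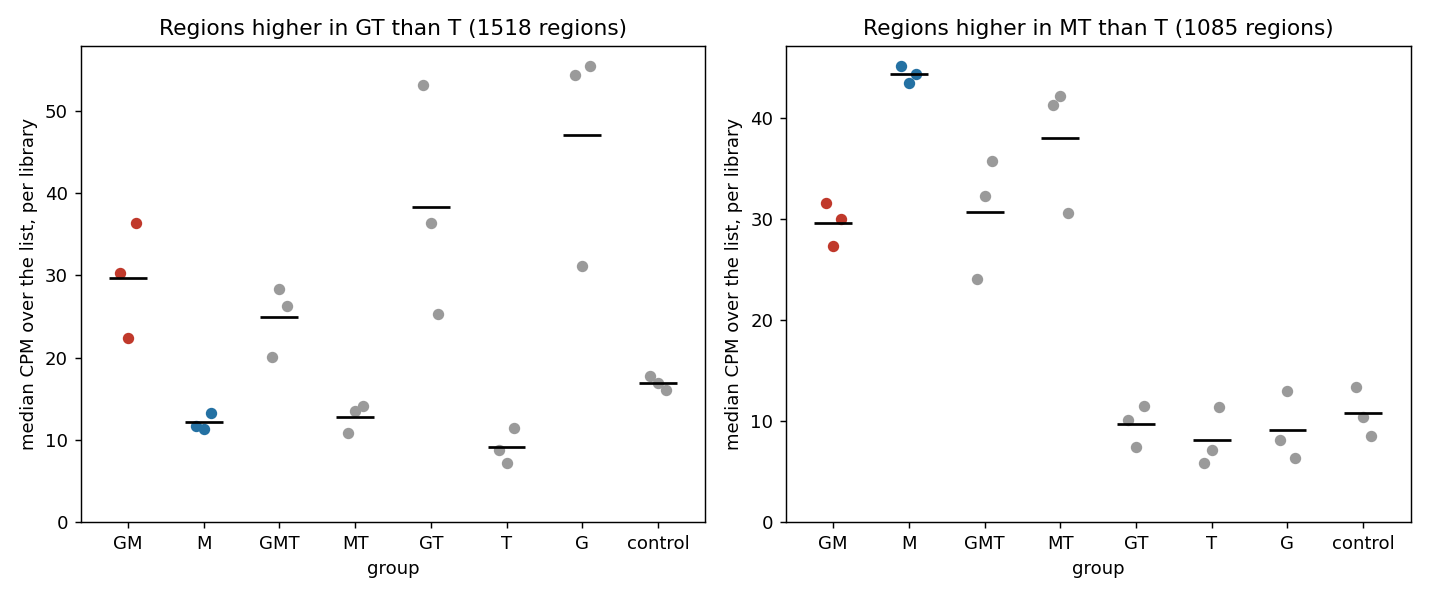
Each point is a library, and the vertical axis is its median CPM over 1518 regions called higher in GT than T (left) and 1085 called higher in MT than T (right), with lines at the group means and GM in red beside M in blue. Neither list came from a contrast of GM or M libraries. On the left GM libraries lie at 22.3 CPM or more, against 13.3 CPM or less in M. On the right they lie at 31.6 CPM or less, against 43.4 CPM or more in M.

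Regions called in the same direction in GM against M, GT against T and GMT against MT numbered 53 for rises and 2 for falls. Of the 20494 regions tested, 2.64%, 7.41% and 0.839% were called higher in these comparisons, in that order. Called lower were 1.87%, 5.27% and 0.146%. The 53 rises rested on single libraries of GMT and MT: they were 90, 5 and 2 when GMT replicates 1, 2 and 3 were left out in turn, and 0, 0 and 34 when MT replicates 1, 2 and 3 were. They were 25 and 19 without M replicates 1 and 2, 34 and 25 without GM replicates 1 and 3, and 35 and 24 without T replicates 1 and 2. The rise with the largest minimum change was chr1:172120604-172120825, which was nearly closed without Gata4. It had 27.6, 14.9 and 30 CPM in the GM libraries, against 1.67, 3.1 and 0 CPM in the M libraries, which held 0 to 3 counts each. Its log2 fold changes were 3.58 in GM against M, 4.45 in GT against T and 3.35 in GMT against MT (adjusted p = 0.00167, 0.000109 and 0.00459). At chr17:66612117-66612438, also ranked 6 among the rises of GM against M, the mean levels were 67.8 CPM in GM and 8.74 CPM in M, 71.2 CPM in GT and 9.41 CPM in T, and 55.9 CPM in GMT and 6.49 CPM in MT. The group means with Gata4 were thus close to one another on all backgrounds, as were those without it. Single libraries with Gata4 ran from 24.1 CPM in GMT replicate 1 to 90.7 CPM in GM replicate 1. With this spread, close means do not show like levels across backgrounds. At chr11:70778920-70779389 the GM libraries had 66.4, 19.9 and 103 CPM and the M libraries 6.69, 8.27 and 4.44 CPM. The other regions in the first 5 were chr11:103549662-103549893 and chr4:19545418-19545878, with log2 fold changes in GM against M of 3.12 and 2.73. Both of these lost the call in GM against M without M replicate 1, M replicate 2 or GM replicate 1, and chr4:19545418-19545878 also without GM replicate 3.

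The falls in all 3 comparisons were chr2:6911839-6912415 and chr3:21463315-21463517. The second of these had 21.7, 42.2 and 22.1 CPM in the GM libraries, against 114, 119 and 118 CPM in the M libraries (log2 fold change -2.09 ± 0.42, adjusted p = 0.00372). In GMT against MT its means were 28.2 and 113 CPM, and in GT against T they were 7.91 and 23.6 CPM. The region was highest in M and MT, and GM and GMT were each far below them. No region fell in all 3 comparisons without GMT replicate 2, GMT replicate 3, MT replicate 1 or MT replicate 2, and 1 did without T replicate 1, T replicate 2 or GT replicate 2. There were 4 without the library labelled GT replicate 1.

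GM was also set beside G, which differs from it by Mef2c. The comparison shares the GM libraries, so levels are given with no test, and those in GM, M and G follow from the calls that chose the regions. At 30 regions GM was called higher than both G and M, with medians of 37.9 CPM in GM, 8.96 CPM in G and 8.25 CPM in M. At these regions GMT libraries, which were in neither contrast but entered the shared model, had a median of 28.3 CPM. Medians were 11.2 CPM in MT, 10.9 CPM in GT, 6.91 CPM in T and 7.13 CPM in the control. The 30 regions were 19 without G replicate 1, 10 without G replicate 3, 8, 6 and 15 when M replicates 1, 2 and 3 were left out, and 8 and 5 without GM replicates 1 and 3. Of the 384 regions that fell, 76 were called higher in GM than G, with medians of 26.7 CPM in GM, 6.23 CPM in G and 93.9 CPM in M, and 25.3 CPM in GMT and 46.3 CPM in MT. The 76 were 36 and 18 without G replicates 1 and 3, 24 and 20 without M replicates 1 and 2, and 13, 30 and 12 when GM replicates 1, 2 and 3 were left out. Without the library labelled GT replicate 1 they were 115. Another 19 regions were called higher in GM than M and lower in GM than G, a count that ran from 0 to 62 when 1 library was left out. It was 0 without G replicate 3 or GM replicate 1, 1 without G replicate 1 or GM replicate 2, and 62 without G replicate 2. It was 7, 6 and 12 when M replicates 1, 2 and 3 were left out, 3 without GM replicate 3 and 50 without the library labelled GT replicate 1. Over all regions tested, GM against G gave 1183 regions higher (5.77%) and 307 lower (1.5%), together 7.27%.

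Whether the change on adding Gata4 differed between backgrounds was tested as an interaction. Between the Mef2c and Tbx5 backgrounds, (GM minus M) minus (GT minus T), 3 regions (0.0146% of those tested) passed and 1844 had an unadjusted p below 0.05, while DESeq2 called 14 higher and 2 lower. At chr19:56453036-56453820 the GM libraries had 76.3, 59.6 and 67.9 CPM and the M libraries 31.8, 37.2 and 20 CPM, whereas the GT libraries had 19, 20.5 and 29.9 CPM and the T libraries 149, 122 and 68.4 CPM. Gata4 went with a higher level beside Mef2c, which did not pass by itself (log2 fold change 1.17, adjusted p = 0.085), and with a fall beside Tbx5 (log2 fold change -2.32, adjusted p = 0.000765), an interaction of 3.48 ± 0.57 (adjusted p = 0.0147). This region had 10.2 CPM in G and 11.7 CPM in the control, so it was low without Mef2c or Tbx5. The other regions were chr1:136172255-136172701 and chr11:51235449-51235862, which lay below the level asked of named regions and were chosen after their values were seen. Both were open in T, with 96.8 to 202 CPM and 49.4 to 78.9 CPM, and fell in GT (log2 fold changes -2.75 and -3.89, adjusted p = 0.00021 and 0.000109). In GM against M neither passed (adjusted p = 0.145 and 0.765), at 4.96 to 10.5 CPM in GM and 1.67 to 3.1 CPM in M for the first, and 4.74 to 19.9 CPM in GM and 5.01 to 11.1 CPM in M for the second. The number of regions with this interaction was 0 without M replicate 1 or T replicate 2, 1 without M replicate 2, 10 higher and 2 lower without T replicate 3, and 18 higher and 4 lower without GT replicate 2.

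For (GM minus M) minus (GMT minus MT) no region passed (0.0%) in edgeR or DESeq2, and 889 had an unadjusted p below 0.05. For (GM minus M) minus (G minus control) none passed (0.0%) in edgeR and 3 passed in DESeq2, and 1823 had an unadjusted p below 0.05. An unadjusted p below 0.05 in 5% of the regions tested would be 1025 regions. The lack of calls in edgeR does not show that Gata4 acted alike on these backgrounds.

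Width and the level in the control, which is a parallel dsRed culture without the inhibitors, are given as descriptions with no test. Regions that rose had a median width of 311 bp and those that fell 276 bp, against 261 bp over all regions tested. Regions of 500 bp or more made up 81 of the 542 rises (14.9%) and 22 of the 384 falls (5.73%), against 6.66% of all regions. In the control, 194 of the falls (50.5%) stood below 10 CPM, as did 183 of the rises (33.8%) and 31.3% of all regions. Only 97 of the falls (25.3%) were above the control's median level, against 242 of the rises (44.6%), so most regions lower in GM than M were not prominent in the control fibroblasts. The mean level over the 8 groups had a median of 16.7 CPM at falls, 30 CPM at rises and 23 CPM over all regions. A low control level was not told apart from this lower coverage of the falls. Few changed regions had another changed region nearby. Of the 232 rises with another tested region within 10000 bp, 20 (8.62%) had a rise there and 2 (0.862%) a fall. Of the 111 falls with such a neighbour, 12 (10.8%) had a fall there and 2 (1.8%) a rise. Of the 8135 tested regions with a neighbour, 3.9% had a rise and 1.73% a fall there, and these shares carry no test. Calls were spread over chromosomes 1 to 19 and X. The share of regions that rose ran from 1.83% on chromosome 13 to 3.4% on chromosome 12, and the share that fell from 0.67% on chromosome 17 to 3.29% on chromosome 18. Median log2 fold changes per chromosome stayed between -0.07 and 0.09.

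Across all 20494 regions, the log2 fold changes of GM against M correlated with those of GT against T at a Pearson r of 0.50, of GMT against MT at 0.53 and of G against control at 0.56, and with those of MT against T at -0.20. These values describe regions that share libraries and depth within each comparison and are not independent points.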

How the data were processed

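Reads went through Bowtie2, Picard and featureCounts (versions not given) on mouse build mm9, per the submitters' processing notes. The deposited file is a matrix of raw counts by region and library, with no normalisation by the authors. The definition of the regions and the counted unit (read or fragment) are not given in the sources used here. Samples of dsRed cells with inhibitors (3) were not used here.

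The analysis used edgeR 4.0.16 and DESeq2 1.42.0 under R 4.3.3. The filter was filterByExpr (minimum count 10, minimum total 15), scaling was by TMM, and one model of 8 groups, with no replicate block, was tested by edgeR's quasi-likelihood method (square root of the common dispersion 0.294). Benjamini-Hochberg adjustment ran over all regions tested in each comparison, and an adjusted p below 0.05 makes a call. Each SE was taken as the size of the log2 fold change over the root of its F statistic. Log2 CPM used a prior count of 2. Shares of regions on one side of 0 carry no test.

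Regions named by rank are the 12 rises and 12 falls with the largest log2 fold changes in GM against M, among called regions whose mean log2 CPM reached the median of those tested and whose groups do not overlap. To these were added up to 5 per side called in GM against M, GT against T and GMT against MT, ranked by their smallest change, and up to 3 per side for each interaction. The comparison, lists and rules were chosen with earlier results of these data known.

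Libraries within M differed by 1.468 to 2.313 chi-square units per degree of freedom and those within GM by 2.214 to 4.474, so none was a copy of another. G replicate 1 and the library labelled GT replicate 1 differed by 1.508, as little as replicates of one group, although their labels differ. On simulated data for GM against M, with 50 regions changed per direction and fold, 42 raised and 33 lowered at a fold of 4 were called, and 14 and 6 at a fold of 2, with 4 false calls among 18173 regions. In this simulation the smaller changes were mostly missed, and falls more often than rises. The changed regions were drawn only from those at or above the median level. They started from their mean over all 24 libraries, not from their level in M. These shares therefore do not carry over to less covered regions. The alternatives were RLE size factors, library totals alone, loess offsets (span 0.3), DESeq2, no filter, a minimum count of 20, only the compared groups, a replicate block, a minimum fold of 1.5, an adjusted p below 0.01 and leaving out each library. Fits without the library labelled GT replicate 1 in comparisons other than GT against T, and the alternatives for list shares and for regions called in several comparisons, were added after seeing the data.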

Additional observations from a re-analysis of the deposited data

Results flagged for a closer look

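In 3 regions the change on adding Gata4 differed between the Mef2c and the Tbx5 background by the interaction test of edgeR. The interaction, (GM minus M) minus (GT minus T) in log2 units, was 3.48 at chr19:56453036-56453820, 4.48 at chr1:136172255-136172701 and 4.34 at chr11:51235449-51235862 (adjusted p = 0.0147, 0.02 and 0.02). Each was higher in T than in GT in all libraries. M averaged only 2.33 CPM at chr1:136172255-136172701, and 8.13 CPM at chr11:51235449-51235862, where the control had 10.6 CPM. Little room was therefore left at these regions for a fall beside Mef2c. The call at chr19:56453036-56453820 was lost without M replicate 1 or T replicate 2. At chr1:136172255-136172701 it was lost without any 1 of the M libraries, T replicate 2 or GM replicate 1. At chr11:51235449-51235862 it was lost without M replicate 1, M replicate 2, T replicate 2, GM replicate 1, GM replicate 2 or the library labelled GT replicate 1.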

How the results depend on the processing

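Under the alternatives run, no named region changed sign in GM against M or in its interaction, and no list median that was rerun did. Fold changes of named regions in other comparisons were not checked. The median over all regions in GM against M ran from -0.029 with loess offsets to 0.049 with library totals alone. The majority of calls in GM against M turned to falls with loess offsets (450 higher, 558 lower) and without M replicate 2 (80 higher, 97 lower). Same-numbered GM and M libraries deviated from their group means with correlations of 0.10, -0.12 and 0.13. Libraries with different numbers gave -0.29 to 0.25. With 3 libraries a group, these values cannot decide whether the numbers pair the samples. The replicate block gave 519 higher and 383 lower (498 and 364 also called without it). A fit with only the compared groups gave 848 higher and 733 lower, of which 417 and 350 were also called with all groups, and the cause was not tested. A minimum fold of 1.5 left 177 and 120, and an adjusted p below 0.01 left 136 and 91, both stricter by construction. DESeq2 called 51 regions lower in GMT than MT, 14 higher and 2 lower for (GM minus M) minus (GT minus T), and 3 higher for (GM minus M) minus (G minus control). RLE size factors and DESeq2 each called 376 regions lower in MT than T, and with RLE 80.7% of the regions lower in G than control were lower in GM than M. The cause of these shifts was not tested. Leaving out 1 library at a time gave 80 to 796 regions higher and 78 to 549 lower in GM than M, 434 to 1678 and 355 to 1489 for GT against T, and 0 to 544 and 0 to 130 for GMT against MT. The upper ends for GM against M came without the library labelled GT replicate 1, which is in neither group. The ranges were 845 to 2495 and 306 to 2040 for G against control, 295 to 1252 and 35 to 799 for MT against T, and 339 to 1404 and 19 to 753 for GM against G. Regions called in GM against M, GT against T and GMT against MT numbered 0 to 90 for rises and 0 to 4 for falls, and with no filter 1 fall. Rises over M that were higher in GM than G numbered 5 to 45, and those lower in GM than G 0 to 62 (12 with no filter). Falls that were higher in GM than G numbered 12 to 115. The interaction of the Mef2c and Tbx5 backgrounds gave 0 to 18 higher and 0 to 4 lower. Of the rises in GM, 94.1% to 99.1% were higher in GT than T, 90.6% to 97.3% in GMT than MT (medians 0.921 to 1.363) and 91.2% to 98.2% in G than control. Of the falls, 57.8% to 76.3% were lower in GT than T, 85.2% to 97.5% in GMT than MT (medians -1.141 to -0.704) and 77.1% to 92.3% in G than control. Shares higher in GM than M were 93.0% to 97.6% of regions higher in GT than T, 91.3% to 97.8% of those higher in G than control and 93.0% to 100.0% of those higher in GMT than MT. Shares lower in GM than M were 69.7% to 76.8% of regions higher in MT than T and 65.2% to 90.2% of those lower in G than control. With M libraries holding a median of 5 to 8.5 counts at the rises, depth limits the size of a fold change there.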
